A study of Danio rerio with 24 samples.

Results

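The genotype by tissue interaction at 36 hours post fertilization (hpf) asks, for each gene, whether the young (yng) mutation shifted its transcript by a different amount in the zebrafish retina than in the whole embryo. For each probe set it is the yng minus wild-type (WT) difference in retina minus the same difference in whole embryo, on a log2 scale. It uses 12 of the 24 arrays of the study, 3 in each of 4 groups. The groups were yng retina, WT retina, yng whole embryo and WT whole embryo, all at 36 hpf and all of strain AB, except that the labels of WT embryo replicate 1 name no strain. The yng allele is a mutation of smarca4a (brg1), the mutants were staged by their WT siblings, and a retina pool of yng took both eyes of 10 embryos, giving 20 retinas. The pools of the other groups held 10 retinas or 10 embryos. The study also measured the same 4 groups at 52 hpf, which enter here for the spread and for 1 comparison of ages. The whole embryo contains its own eyes, so the retina is compared with a mixture that includes it. A negative interaction means that yng minus WT was lower in retina than in embryo, and a positive one that it was higher.

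The gene smarca4a encodes the ATPase of the SWI/SNF complex, which moves or evicts nucleosomes and so changes which stretches of DNA transcription factors can reach. In the developing retina, dividing progenitors leave the cell cycle in a set order, with ganglion cells first and photoreceptors, bipolar cells and Müller glia later. At the age studied, the zebrafish retina is in the middle of its first wave of neurogenesis. The mutant is known for retinal cells that are specified but fail to complete their differentiation.

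The measure is a normalized probe set intensity, and differences are log2 differences ± the standard error (SE) of a linear model with n = 3 arrays per group. Adjusted p is that of limma over 15502 probe sets, with a threshold of 0.05. As deposited, the median intensity was 145 to 154 in the retina arrays and 223 to 240 in the embryo arrays. Of all probe sets, 246 to 313 were listed at 0 in a retina array and 37 to 52 in an embryo array, and quantile normalization turned such a 0 into 3.36 to 4.10 in retina arrays. The number of arrays limits the precision, with a median SE of the interaction of 0.224. Within a group the lowest correlation between arrays was 0.9855. The p-values measure the spread between pools, not between single animals.

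Marker genes went with the labelled tissues. All 10 retina markers measured were brighter in WT retina than in WT embryo, by a median of 2.11 on the log2 scale, and their summed intensity was 16646 to 19257 in yng retina and 15393 to 16560 in WT retina, against 2907 to 3424 in yng embryo and 2593 to 3164 in WT embryo. Muscle markers summed to 303 to 362 in yng retina and 297 to 482 in WT retina, against at least 51366 in every embryo array. Some retina arrays stood apart in other tissues' markers. The hindbrain gene hoxb3a was at 29.4, 34.0 and 26.1 in yng retinas and at 395, 27.9 and 39.0 in WT retinas, so WT retina replicate 1 alone was high. It is 1 of 6 spinal cord and hindbrain markers. With hoxb3a included, these summed to 269, 464 and 375 in yng retinas and to 761, 351 and 362 in WT retinas. Another of the 6, hoxd4a, was at 29.5, 92.7 and 72.5 in yng retinas and at 107, 51.4 and 69.0 in WT retinas. Lens markers summed to 2613, 1516 and 482 in yng retinas and to 635, 408 and 783 in WT retinas. Blood markers summed to 3131, 2391 and 5476 in yng retinas and to 4653, 6211 and 7021 in WT retinas. The part of these differences in the results was not tested, except where a value without the array is given.

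The replicate number was also the hybridization day for the 12 arrays of 36 hpf, while at 52 hpf WT embryo replicate 3 was hybridized on a day of its own. Station 1 processed the WT arrays and station 2 the yng arrays, and the embryos of 36 hpf used module 1 and the retinas module 3, so this pair of station and module cannot be told apart from the group. For yng retina replicate 1 the record notes a wash error. The log2 ratio of 3′ to 5′ signal of gapdh, a sign of RNA quality, averaged 2.89 in yng retina, 3.10 in WT retina, 3.22 in yng embryo and 3.13 in WT embryo. Its own interaction was -0.64, -0.04 and -0.20 in replicates 1, 2 and 3, and its part in the results was not tested.

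The smarca4a transcript was lower in yng in both tissues. Its brighter probe set was at 1186, 1222 and 1266 in yng retina, against 4185, 3854 and 3829 in WT retina. Whole embryos had 677, 748 and 728 in yng, against 3118, 3095 and 3057 in WT, and the genotypes did not overlap in either tissue. The fall was 1.68 ± 0.08 in retina and 2.08 ± 0.08 in embryo, which gave an interaction of 0.40 ± 0.11 (adjusted p = 0.0488). That call stood at the edge of the threshold. It was lost when any one array other than WT retina replicate 1 was left out, with adjusted p up to 0.135, and on the intensities as deposited. The second probe set gave 0.18 ± 0.26 (adjusted p = 0.953). None of the other 15 SWI/SNF genes measured passed with limma, beside 2.37% of all probe sets. An unadjusted p under 0.05 was found for 0 of them.

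In all, 367 of 15502 probe sets (2.37%) passed in the interaction, 131 higher (0.845%) and 236 lower (1.52%). An interaction of at least 2-fold was found in 235 of them, 75 higher and 160 lower, and 1682 probe sets had an unadjusted p under 0.05. With the replicate number as a block in the fit the count was 816, with 335 higher and 481 lower, and all 367 were among them. All 367 had the same sign when computed within each of the 3 replicate numbers, as did 38.8% of all probe sets. These are the values that made the calls, so this agreement follows largely from the selection and is no separate test. A single symbol was given for 252 of them, naming 244 genes. WT retina replicate 3 moved the number of lower calls most, to 363 when it was left out.

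The tissue in which the mutants differed sorted the 367 into unequal classes. The largest class, 174 probe sets (47.4%), fell in yng retina and did not pass in the embryo. A further 73 (19.9%) fell in the embryo alone, 46 (12.5%) rose in retina alone and 38 (10.4%) rose in the embryo alone. Both tissues passed with the same sign in 17 and with opposite signs in 8, and neither passed alone in 11. For comparison, 1408 probe sets (9.08%) passed in retina, 649 higher (4.19%) and 759 lower (4.9%), and 922 (5.95%) in embryo, 431 higher (2.78%) and 491 lower (3.17%). With the replicate block these became 2865 and 2247. A gene that passed in 1 tissue is not thereby unchanged in the other; the interaction is the test of the difference.

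**Figure D1:**
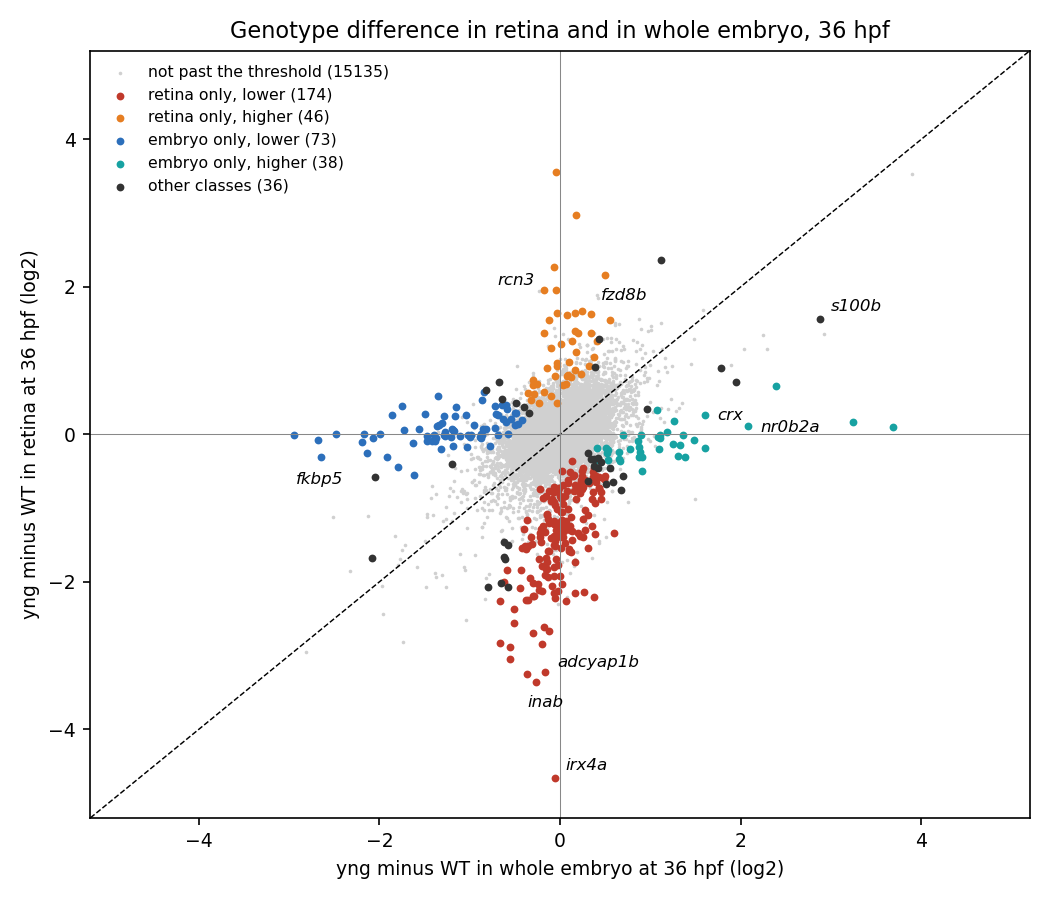
Each point is a probe set, with its yng minus WT difference in whole embryo on the horizontal axis and in retina on the vertical axis (log2); the dashed line marks equal differences. The 367 that passed in the interaction are coloured by the tissue in which they passed, and the 174 that fell in retina alone form the arm below the centre, with irx4a at -4.66 in retina and -0.06 in embryo.

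The retina-only falls had a median of -1.30 in retina and -0.01 in embryo. Most of these probe sets were not brightest in the retina to begin with. In WT, 134 of the 174 were lower in retina than in embryo, with a median of -0.88, while over all probe sets the median was 0.39 and 10666 were higher in retina. As deposited, without normalization, it was 152 of 174 with a median of -1.35, against -0.08 over all probe sets. In yng the median retina minus embryo difference of the 174 was -2.29, a step from WT that follows largely from the selection on the interaction. Of the 174, 11 had a mean under 64 in both retina groups, a level at which 21.3% of all probe sets stood.

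Retinal ganglion cells are the output neurons whose axons form the optic nerve, and the gene list named after them made the clearest group. Of 22 measured, 14 (63.6%, beside 1.52% of all probe sets) were lower in the interaction and none was higher. The median was -1.52, against 0.02 over all probe sets. In retina 15 fell and 2 rose, with a median of -1.75, and in embryo none fell and 1 rose, with a median of 0.00. Over all probe sets 4.9% fell and 4.19% rose in retina, and 3.17% fell and 2.78% rose in embryo. The medians within replicates 1, 2 and 3 were -1.53, -1.67 and -1.36. In bulk tissue, fewer cells of a type and less RNA per cell cannot be told apart. The list also holds genes of young neurons in general, such as inab, stmn2a and the pan-neuronal gene elavl3. In WT its median retina minus embryo difference was -0.55, against 0.39 over all probe sets. Whether the shift was particular to ganglion cells was not tested.

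The Iroquois homeobox gene irx4a, a transcription factor gene, had the lowest interaction of all. It was at 37.5 in yng retina replicate 1 and listed at 0 in the other yng retinas, against 911, 809 and 436 in WT retinas. The embryos held 350, 359 and 278 in yng and 315, 349 and 360 in WT. The yng retinas were thus far below every other array, and the embryos overlapped. Its interaction was -4.61 ± 0.39 (adjusted p = 3.35e-07), a value that rests on the offset of 16 added before the log because of the zeros: it was -6.08 with an offset of 1 and -3.23 with 64. Its relative irx1a was at 296, 224 and 180 in yng retina, against 1166, 1199 and 830 in WT retina, and at 1102, 1315 and 1124 in yng embryo, against 1036, 1330 and 1233 in WT embryo. Again only the yng retinas were low, and the interaction was -2.10 ± 0.23 (adjusted p = 1.16e-05). Both other Iroquois genes of the list, singled out after their values were seen, also passed, irx5a at -1.91 and irx3a at -1.79 (adjusted p = 0.0446), of which irx3a lost its call in 10 of the 12 fits that left out a single array, with adjusted p up to 0.126.

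The LIM homeobox gene isl1a, expressed by ganglion cells and several inner retinal neurons, was at 826, 493 and 610 in yng retina and at 2538, 2579 and 2216 in WT retina. In embryos it was at 1294, 1033 and 1347 in yng and at 1141, 1059 and 1477 in WT, where the groups overlapped. Its interaction was -1.93 ± 0.22 (adjusted p = 2.04e-05), and a second probe set gave -1.85 ± 0.54 without passing (adjusted p = 0.0816), although it passed with the replicate number as a block (adjusted p = 0.000195). The T-box gene eomesa was named from the list of the optic stalk and of brain regions outside the retina, and is a ganglion cell regulator in mouse. It passed at -1.16 ± 0.23 (adjusted p = 0.00543), from -0.73 in retina and 0.43 in embryo. Other regulators of the same cells did not pass. The proneural gene atoh7, which starts the ganglion cell programme, was at 0.23 (-0.24 in retina and -0.48 in embryo), pou4f2 at -0.41 and barhl2 at -0.03.

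Cytoskeletal and axonal genes of young neurons followed. The internexin gene inab, a neuronal intermediate filament gene, was at 40.2, 39.3 and 37.7 in yng retina, against 480, 681 and 501 in WT retina. Embryos were at 332, 489 and 450 in yng and at 414, 494 and 631 in WT, so the mutant retinas alone stood apart. The interaction was -3.09 ± 0.27 (adjusted p = 6.19e-07). The stathmin gene stmn2a, a microtubule regulator of growing axons, was at 61.9, 54.6 and 52.3 in yng retina, against 681, 404 and 275 in WT retina, and at 1563, 1399 and 1208 in yng embryo, against 1698, 1609 and 1414 in WT embryo. It gave -2.43 ± 0.28 (adjusted p = 2.25e-05). The RNA-binding protein gene elavl4 gave -2.58 ± 0.54 (adjusted p = 0.00857). Singled out after their values were seen, the growth cone gene gap43 passed at -1.90, the pan-neuronal gene elavl3 at -2.05, the adhesion gene alcama at -1.45, the chemokine receptor gene cxcr4b at -1.59 and the axon guidance receptor gene robo2 at -1.01, a call that 4 of the 12 single-array omissions lost, with adjusted p up to 0.0694. The ligand of that chemokine receptor, cxcl12a, rose in both tissues, by 1.47 in retina and 1.00 in embryo, and its interaction of 0.47 did not pass.

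**Figure D2:**
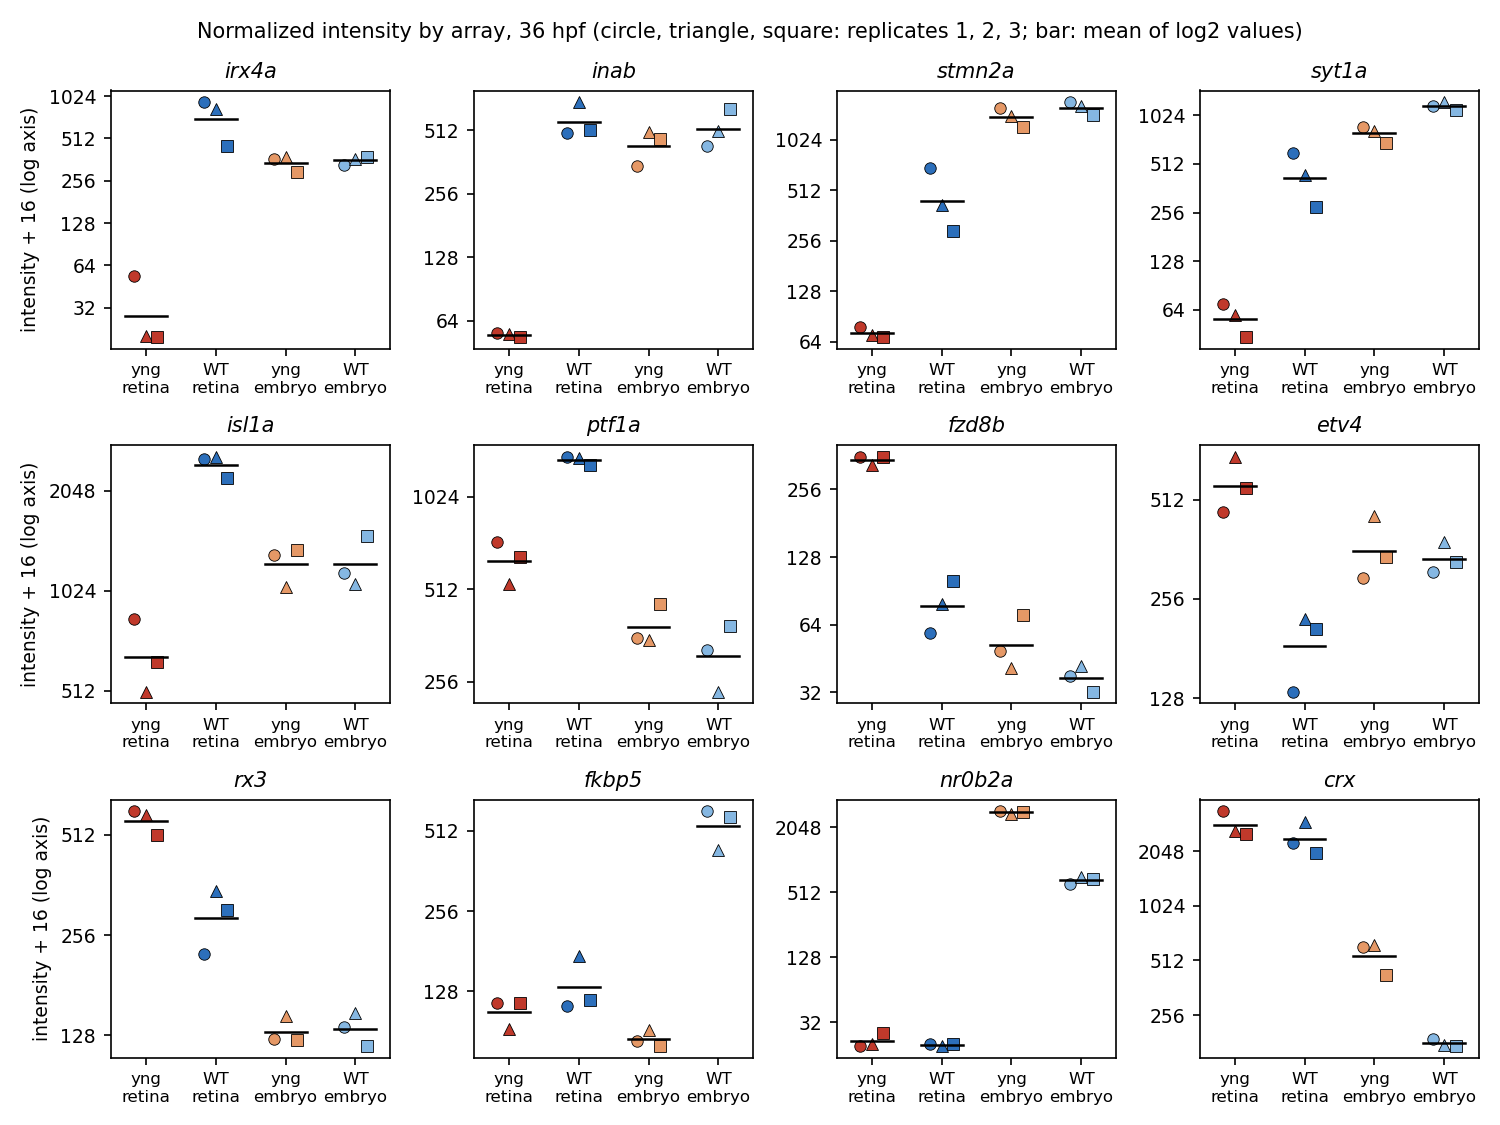
Normalized intensity plus 16 on a log axis for 12 genes, by array, with yng retina, WT retina, yng embryo and WT embryo from left to right; symbols mark replicates 1, 2 and 3 and the bar is the mean of the log2 values. In irx4a, inab, stmn2a, syt1a, isl1a and ptf1a the yng retinas lie below the WT retinas, in fzd8b, etv4 and rx3 above them, and in fkbp5, nr0b2a and crx it is the embryos that separate.

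Synapse genes shared this pattern less evenly. Of 20 measured, 6 (30.0%, beside 1.52% of all probe sets) were lower in the interaction and 1 was higher, with a median of -0.84. The medians within replicates 1, 2 and 3 were -1.26, -0.98 and -0.20. In retina 11 fell and none rose (median -1.11), beside 4.9% and 4.19% of all probe sets. In embryo 2 fell and none rose (median -0.23), beside 3.17% and 2.78% of all probe sets. The calcium sensor of vesicle release, syt1a, was at 53.6, 43.8 and 27.5 in yng retina, against 584, 419 and 262 in WT retina. Embryo intensities were 854, 806 and 676 in yng, against 1142, 1214 and 1092 in WT. The genotypes did not overlap in either tissue, yet the distance was wider in retina, and the interaction was -2.32 ± 0.28 (adjusted p = 3.13e-05). A second, dimmer probe set gave -1.47 ± 0.57, which did not pass (adjusted p = 0.268).

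The vesicle protein gene sypa, a synaptophysin, was at 71.4, 39.1 and 28.7 in yng retina and at 905, 351 and 216 in WT retina. Its interaction was -2.64 ± 0.43 (adjusted p = 0.00109), and that of the vesicle glycoprotein gene sv2bb was -2.17 ± 0.29 (adjusted p = 0.000116). The complexin gene cplx2a was at 17.3, 18.1 and 14.9 in yng retina and at 660, 158 and 63.9 in WT retina, with WT replicate 1 far above the others. Its interaction of -2.39 ± 0.59 had an adjusted p of 0.029, which was up to 0.0702 when any one embryo or yng retina array was left out, and the value was -1.55 without WT retina replicate 1 and -3.09 without WT retina replicate 3. The neuronal sodium pump gene atp1a3b, singled out after its values were seen, was the member that was higher, at 0.62 (adjusted p = 0.0363), and 8 of the 12 single-array omissions lost that call, with adjusted p up to 0.0993.

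The WT retinas differed among themselves in these genes. The median intensity of the synapse list was 69.0, 42.8 and 56.9 in yng retina and 255, 164 and 120 in WT retina, with WT replicate 1 the highest and replicate 3 the lowest. That of the ganglion cell list was 109, 119 and 122 in yng retina and 495, 476 and 310 in WT retina. In embryos the synapse list stood between 412 and 491 in all 6 arrays. WT retina replicate 1 was also the array with a high hoxb3a, 1 of the 6 spinal cord and hindbrain markers. Without this array, the synapse list's interaction median was -0.48 with 6 lower, and the ganglion cell list's was -1.34 with 15 lower. The genes syt1a, sypa and cplx2a then gave -2.06, -2.08 and -1.55. Without WT retina replicate 3 the synapse list had 10 lower and a median of -1.17. Its number lower was 4 without any 1 embryo array and without yng retina replicate 2 or 3. It was also 4 without moderation of the variance and with only the 12 arrays of 36 hpf.

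**Figure D3:**
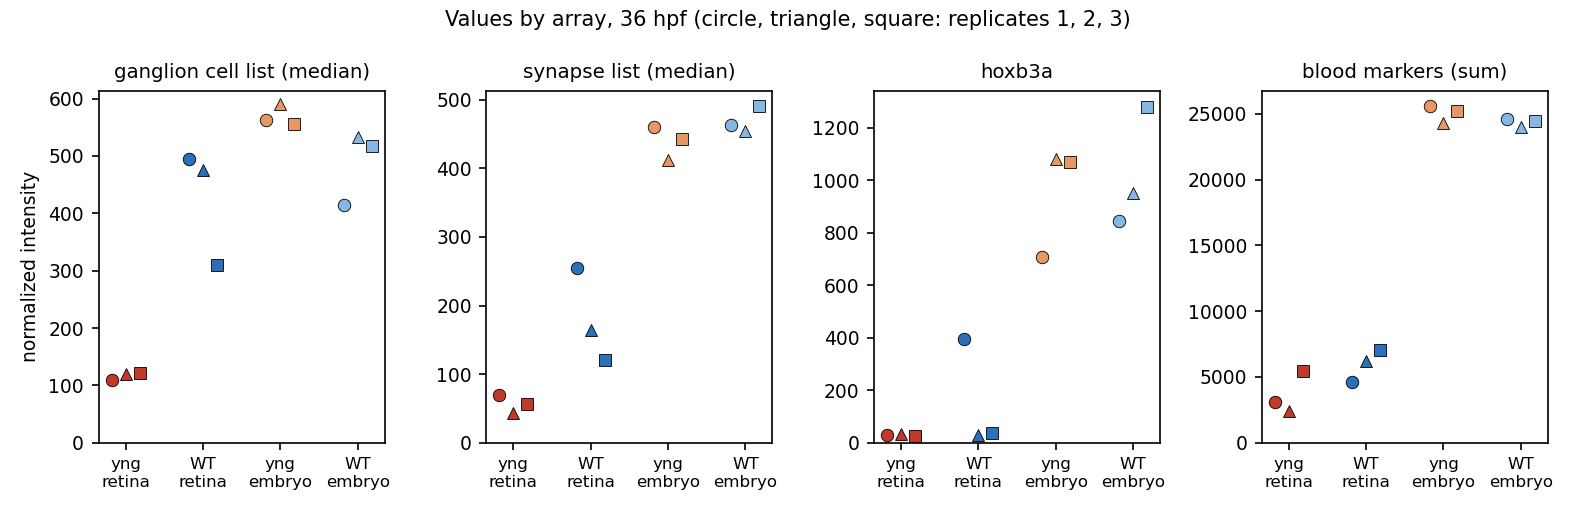
Normalized intensity by array at 36 hpf, with yng retina, WT retina, yng embryo and WT embryo from left to right: the median over the ganglion cell list and over the synapse list, the level of hoxb3a and the summed blood markers. Among retinas, WT replicate 1 (circle) is highest for hoxb3a, at 395, and for the synapse list, at 255, while the ganglion cell list separates all 3 yng retinas (109 to 122) from all 3 WT retinas (310 to 495).

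Some genes of other retinal neurons also passed. In the list of amacrine, horizontal and bipolar cells 3 of 28 genes (10.7%) were lower, beside 1.52% of all probe sets. None was higher, the median was -0.39, and 24 of the 28 had a negative interaction. With the replicate block or without WT retina replicate 3, 6 were lower. An unadjusted p under 0.05 was found for 11 of the 28, 2 higher and 9 lower. Over all 15502 probe sets it was found for 1682. Besides isl1a the genes that passed were ptf1a and tfap2a, transcription factor genes of amacrine and horizontal cells. The gene ptf1a was at 711, 515 and 637 in yng retina, against 1366, 1358 and 1281 in WT retina, and at 340, 334 and 444 in yng embryo, against 309, 222 and 374 in WT embryo. The retina groups did not overlap and the embryo groups did, with an interaction of -1.41 ± 0.23 (adjusted p = 0.00106). The value for tfap2a was -1.31 ± 0.24 (adjusted p = 0.00297). Of other transcription factor genes on the list, foxn4 was at -0.29, vsx1 at -0.65 and prox1a at -1.34, none of which passed.

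Of 40 photoreceptor genes measured, 1 was higher and 1 lower (5.0%, beside 2.37% of all probe sets), with a median of -0.12. With the replicate block 5 were lower. An unadjusted p under 0.05 was found for 11 of the 40, 3 higher and 8 lower, and for 1682 of all 15502 probe sets. The lower one that passed was crx, the homeobox gene that drives photoreceptor genes, and there the change lay in the embryo. It was at 3384, 2624 and 2541 in yng retina and at 2270, 2943 and 1980 in WT retina, which overlapped. The embryos had 588, 606 and 410 in yng, against 174, 160 and 157 in WT, with no overlap. The gene rose by 1.60 in embryo and stood at 0.26 in retina, and the interaction was -1.34 ± 0.23 (adjusted p = 0.00177). The transducin gamma gene gngt1 was the higher one, at 1.24 ± 0.25 (adjusted p = 0.00582). It was at 35.2, 51.4 and 51.4 in yng retina and at 34.4, 56.7 and 41.0 in WT retina, and fell by 1.19 in embryo.

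Of 17 Müller glia genes 2 were higher and 2 lower (23.5%, beside 2.37% of all probe sets), with a median of 0.02. The higher ones were her6 and cav1 and the lower ones s100b and slc1a2b. Leaving out single arrays brought the number higher to 1 in 9 of 12 fits and the number lower to 1 in 7. The call of her6 was lost in 10 of them and that of slc1a2b (-1.12 ± 0.27, adjusted p = 0.0284) in 7. The calcium-binding protein gene s100b rose in both tissues, at 58.7, 78.4 and 64.5 in yng retina, against 16.7, 9.03 and 10.8 in WT retina, and at 443, 494 and 531 in yng embryo, against 35.3, 68.7 and 57.3 in WT embryo. It rose by 1.56 in retina and by 2.88 in embryo, and the interaction was -1.32 ± 0.25 (adjusted p = 0.00431). With an offset of 1 it was -0.81 and did not pass (adjusted p = 0.414). The caveolin gene cav1 was at 1.04 ± 0.21 in the probe set named here, while 3 others gave 0.64, 0.07 and -0.05 without passing, of which the one at 0.64 passed with the replicate block (adjusted p = 0.0072).

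Several of the lowest interactions belonged to genes outside the retinal lists. The neuropeptide gene adcyap1b, which encodes PACAP, was at 35.1, 28.6 and 28.2 in yng retina, against 419, 472 and 366 in WT retina, and at 496, 643 and 542 in yng embryo, against 510, 658 and 733 in WT embryo. The mutant retinas alone were low, and the interaction was -3.05 ± 0.22 (adjusted p = 2.34e-08). The thymosin beta gene tmsb, an actin-monomer binder of neurons, was at 76.0, 36.3 and 48.4 in yng retina, against 830, 613 and 485 in WT retina, and gave -2.88 ± 0.28 (adjusted p = 2.23e-06). The tetraspanin gene cd82a had the lowest adjusted p of the genes named, 3.98e-09, at -2.54 ± 0.16. It was at 245, 248 and 173 in yng retina, against 1445, 1435 and 1548 in WT retina, and at 2151, 2134 and 2204 in yng embryo, against 2399, 2162 and 2538 in WT embryo. The adaptor gene stap2a (-2.48 ± 0.39) and the endophilin gene sh3gl2a (-2.05 ± 0.29), which acts in vesicle recycling, passed in the same way, with adjusted p of 0.000662 and 0.000174.

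Of 32 p53 and apoptosis genes 3 (9.38%) were lower and none higher, beside 1.52% of all probe sets lower. The median was -0.08, and 5 were lower with the replicate block. The p53-induced gene tp53inp1 was at 339, 264 and 326 in yng retina, against 925, 905 and 709 in WT retina, and at 1050, 1292 and 1167 in yng embryo, against 1219, 1182 and 1345 in WT embryo. It fell in retina alone, with an interaction of -1.30 ± 0.17 (adjusted p = 9.57e-05). The growth arrest gene gadd45ga passed at -0.99 ± 0.19 (adjusted p = 0.00508). The sestrin gene sesn3 rose in both tissues, by 0.34 in retina and 0.97 in embryo (interaction -0.63 ± 0.14, adjusted p = 0.0139). The p53 target genes mdm2 and ccng1 did not pass, at -0.04 and -0.07.

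Of 44 genes of blood and vessels 4 were lower and 1, cav1, was higher (11.4%, beside 2.37% of all probe sets). The median was -0.24. With the replicate block 7 were lower and 2 higher, and 2 to 6 were lower when single arrays were left out. The actin-bundling gene lcp1 of leukocytes was at 22.7, 16.6 and 32.5 in yng retina, against 61.7, 94.1 and 74.6 in WT retina, and at 278, 206 and 304 in yng embryo, against 300, 244 and 235 in WT embryo. Its interaction was -1.23 ± 0.29 (adjusted p = 0.0222), a call that 6 of the 12 single-array omissions lost. The coronin gene coro1a of blood cells was at -0.96 ± 0.20 (adjusted p = 0.00725) in 1 probe set. A second, dimmer one had the opposite sign, at 0.71 ± 0.30, and did not pass (adjusted p = 0.345). These counts lie beside the blood markers above, whose sums were lower in yng retinas 1 and 2 than in every WT retina. Of the 5 blood markers 2 fell in yng retina, beside 4.9% of all probe sets. They were the globin gene hbae3, by 0.85, and the red cell anion exchanger gene slc4a1a, by 1.07.

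Fewer genes rose in the mutant retina alone. The class of 46 had a median of 1.01 in retina and 0.02 in embryo, and 37 of the 46 were lower in WT retina than in WT embryo. Over all 46 the median retina minus embryo difference was -0.90 in WT and 0.21 in yng. The step between these medians follows largely from the selection on the interaction. The Wnt receptor gene fzd8b, of the frizzled family, was at 342, 313 and 340 in yng retina, against 42.9, 63.1 and 84.7 in WT retina. In embryos it was at 32.9, 25.1 and 54.9 in yng and at 21.7, 25.9 and 16.3 in WT. The yng retinas stood above all other arrays, with an interaction of 1.67 ± 0.29 (adjusted p = 0.00183). With an offset of 1 it was also 1.67, with an adjusted p of 0.0663. None of the other 49 Wnt, BMP and Hedgehog genes measured passed with limma, beside 2.37% of all probe sets. An unadjusted p under 0.05 was found for 5 of them, and for 1682 of all 15502 probe sets. With the replicate block 2 of the 50 were higher.

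Both genes of fibroblast growth factor (FGF) signalling that passed were also higher. Of 22 measured, 2 (9.09%) were higher and none lower in the interaction, beside 0.845% of all probe sets higher. The median was 0.15, and 4 were higher with the replicate block. In retina 7 rose and none fell (median 0.26), beside 4.19% and 4.9% of all probe sets. In embryo 2 rose and none fell (median 0.20), beside 2.78% and 3.17% of all probe sets. The ETS transcription factor gene etv4, a target of the pathway, was at 453, 675 and 539 in yng retina, against 118, 206 and 192 in WT retina, and at 280, 440 and 326 in yng embryo, against 292, 366 and 315 in WT embryo. Only the retina groups separated, and the interaction was 1.54 ± 0.32 (adjusted p = 0.00884). The ligand gene fgf8a was at 526, 479 and 670 in yng retina, against 123, 249 and 185 in WT retina, and at 112, 103 and 113 in yng embryo, against 53.5, 79.8 and 78.3 in WT embryo. It gave 0.99 ± 0.25 (adjusted p = 0.0398), a call that 8 of the 12 single-array omissions lost, with adjusted p up to 0.125. The feedback inhibitor genes spry4 and dusp6 were at 0.90 and 0.81, neither of which passed.

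Among 45 eye-field and retinal progenitor genes 3 were higher and 1 lower (8.89%, beside 2.37% of all probe sets), with a median of -0.06. The higher ones were rx3, mdkb and fzd8b, of which fzd8b is also the call of the Wnt, BMP and Hedgehog list. The number lower was 2 with the replicate block and 0 to 4 when single arrays were left out. In retina 9 rose and 4 fell, beside 4.19% and 4.9% of all probe sets. In embryo 4 rose and none fell, beside 2.78% and 3.17% of all probe sets. The retinal homeobox gene rx3, which starts eye formation, was at 586, 570 and 494 in yng retina, against 209, 332 and 289 in WT retina, and at 109, 130 and 108 in yng embryo, against 120, 133 and 103 in WT embryo. The retina groups did not overlap and the interaction was 1.00 ± 0.20 (adjusted p = 0.00725). The growth factor gene mdkb, a midkine, gave 1.29 ± 0.34 (adjusted p = 0.0468), and 10 of the 12 single-array omissions lost that call, with adjusted p up to 0.137. The lower member was sox11a, at -0.69 ± 0.16 (adjusted p = 0.0177), which rose by 0.50 in embryo and stood at -0.18 in retina. Without yng embryo replicate 2 or yng retina replicate 3 it did not pass (adjusted p up to 0.0628). A second probe set of sox11a passed at -1.12 ± 0.24 (adjusted p = 0.012). Another gave -0.67 ± 0.35 without passing (adjusted p = 0.533), although it passed with the replicate block (adjusted p = 0.00473). The progenitor genes pax6a, sox2 and lhx2a were at -0.03, 0.02 and 0.06. The proneural gene ascl1b fell by 2.21 in retina and stood at 0.08 in embryo, but its interaction of -2.28 did not pass.

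In the Notch and proneural list 2 of 35 genes (5.71%) were higher and none lower, beside 0.845% of all probe sets higher. The median was -0.08. With the replicate block 3 were lower, and 2 were lower without WT retina replicate 1 and also without WT retina replicate 3. The 2 higher genes were the transcriptional repressor genes her6 (0.84 ± 0.22, adjusted p = 0.044) and her2 (1.03 ± 0.25, adjusted p = 0.0318). Leaving out single arrays ended the call of her6 in 10 of 12 fits and that of her2 in 8 of 12, with adjusted p up to 0.115 and 0.106. The receptor gene notch1a and the ligand genes dla and dlb were at -0.05, -0.03 and -0.03.

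Other genes that rose in retina alone are known from the cytoskeleton and from cartilage. The reticulocalbin gene rcn3, a calcium-binding protein gene of the secretory pathway, was at 360, 298 and 282 in yng retina, against 76.4, 58.8 and 70.4 in WT retina, and at 751, 438 and 393 in yng embryo, against 461, 416 and 751 in WT embryo. It gave 2.01 ± 0.38 (adjusted p = 0.00361). The septin gene septin9a and the myosin gene myo9b passed at 1.69 ± 0.35 and 1.67 ± 0.30 (adjusted p = 0.00884 and 0.00258), of which septin9a did not pass with an offset of 1 (adjusted p = 0.228) and myo9b was at 2.63 with an offset of 1 and 0.88 with 64. The cartilage matrix gene cnmd was at 100, 103 and 79.1 in yng retina, against 25.6, 26.8 and 23.5 in WT retina, and at 3125, 3398 and 3025 in yng embryo, against 2793, 3045 and 2678 in WT embryo. Its interaction was 1.24 ± 0.16 (adjusted p = 8.5e-05). It was among the 7 genes of the list of skin and skeleton that passed, 6 higher and 1 lower of 77. That is 9.09%, beside 2.37% of all probe sets. Skin markers summed to 255 to 293 in yng retina and 211 to 295 in WT retina.

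A different set of genes changed in the embryo and not in the retina. The 73 embryo-only falls had a median of -1.19 in embryo and 0.03 in retina. Of these, 55 had a mean under 64 in both retina groups, and 7 were listed at 0 in all 6 retina arrays. For such genes the interaction is close to the embryo difference with its sign turned. Embryo-only rises were similar, with 22 of 38 under that level in the retina, beside 21.3% of all probe sets.

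The glucocorticoid-induced gene fkbp5, a co-chaperone of the glucocorticoid receptor, was measured in both tissues. It was at 100, 76.3 and 100 in yng retina and at 97.2, 158 and 103 in WT retina, which overlapped. In embryos it was at 67.7, 76.0 and 63.9 in yng, against 590, 417 and 559 in WT, with no overlap. It fell by 2.65 in embryo, and the interaction was 2.34 ± 0.29 (adjusted p = 5.02e-05). The transcription factor gene klf9, also glucocorticoid-induced, fell in both tissues, by 0.57 in retina and 2.05 in embryo. It was at 39.3, 52.4 and 42.7 in yng retina, against 79.2, 65.8 and 77.7 in WT retina, and at 56.9, 62.3 and 34.8 in yng embryo, against 268, 247 and 257 in WT embryo, with no overlap in either tissue. Its interaction was 1.47 ± 0.22 (adjusted p = 0.000412).

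The steroid hydroxylase gene cyp17a1 was dim in retina, at 19.7, 15.6 and 18.1 in yng and 12.5, 13.6 and 10.9 in WT. It fell by 1.05 in embryo, and its interaction was 1.30 ± 0.24 (adjusted p = 0.00266), while a second probe set gave 0.52 without passing. In the glucocorticoid list of 31 genes 3 were higher and 1 lower (12.9%, beside 2.37% of all probe sets), with a median of 0.05. With the replicate block 5 were higher and 3 lower. The clock gene per2, singled out after its values were seen, fell by 1.00 in embryo and stood at 0.00 in retina, and its interaction of 1.00 did not pass. The receptor gene nr3c1 was at -0.01 and the feedback gene tsc22d3 at 0.39, which did not pass either. In retina 3 of the 31 rose and 4 fell, beside 4.19% and 4.9% of all probe sets. In embryo 2 rose and 6 fell, beside 2.78% and 3.17% of all probe sets.

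Of the 6 higher members of the skin and skeleton list, aebp1b, col28a2a and krt91 fell in the embryo alone. The carboxypeptidase-like gene aebp1b, a collagen-binding protein gene, was at 8.66, 13.5 and 16.2 in yng retina and at 13.0, 20.8 and 9.91 in WT retina. Its embryo intensities were 74.2, 55.4 and 50.8 in yng, against 446, 523 and 436 in WT, with an interaction of 2.60 ± 0.29 (adjusted p = 1.16e-05). The collagen gene col28a2a, at most 7.93 in any retina array, fell by 2.48 in embryo, to 144, 108 and 160 in yng, against 837, 790 and 858 in WT (interaction 2.48 ± 0.30, adjusted p = 3.75e-05). The keratin gene krt91, an intracellular filament gene of skin, gave 1.17 ± 0.21 (adjusted p = 0.00286). The collagen gene col6a3, which is on none of the lists, also fell in the embryo alone and gave 1.87 ± 0.30 (adjusted p = 0.00102).

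The calpain gene capn2l, a protease gene, was listed at 0 in all 6 retinas. Yng embryos were at 18.9, 11.9 and 23.8, against 204, 300 and 242 in WT embryos, a fall of 2.95 that set its interaction of 2.95 ± 0.23 (adjusted p = 8.68e-08). With offsets of 1 and 64 it was 3.72 and 1.92. Its 2 other probe sets gave 0.31 and -0.08 and did not pass. The somatostatin family gene sst6.1, a hormone gene, was listed at 0 in 5 of 6 retinas. In yng embryos it was listed at 0 in 1 array and lay at 5.06 and 0.0259 in the others after normalization, against 52.1, 70.0 and 72.1 in WT embryos (interaction 2.09 ± 0.25, adjusted p = 3.6e-05). That value rests on the offset, at 4.82 with an offset of 1 and 0.94 with 64. The selenoprotein gene selenow2b passed in 1 probe set at 2.00 ± 0.19 (adjusted p = 1.44e-06) and stood at 0.33 in the other.

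Of 54 muscle genes 1 was higher and 1 lower (3.7%, beside 2.37% of all probe sets), with a median of -0.01, and 3 were higher with the replicate block. The higher one fell in the embryo, where the retina was dim. The skeletal actin gene acta1a was at 72.0, 75.3 and 72.9 in yng retina and at 72.5, 71.5 and 61.5 in WT retina. In embryos it was at 4826, 5421 and 4985 in yng, against 8273, 8304 and 8535 in WT, and it gave 0.80 ± 0.14 (adjusted p = 0.00196). The lower one rose in the embryo. The parvalbumin gene pvalb3, a calcium buffer gene, was at 44.2, 46.9 and 40.4 in yng retina and at 76.2, 35.8 and 67.5 in WT retina. In embryos it was at 3260, 3974 and 3993 in yng, against 1204, 1625 and 1707 in WT, and its interaction was -1.61 ± 0.28 (adjusted p = 0.00171).

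Among the genes named here that rose in the embryo alone, the orphan nuclear receptor gene nr0b2a, which represses other nuclear receptors, had the lowest interaction, although some probe sets without a symbol lay lower. It was listed at 0 in 5 of 6 retinas and at 2867, 2724 and 2826 in yng embryo, against 602, 688 and 660 in WT embryo. The rise of 2.08 in embryo gave an interaction of -1.97 ± 0.17 (adjusted p = 5.74e-07), and a second probe set gave -1.74 ± 0.33 (adjusted p = 0.0044). The kinase gene mknk2a and the fibronectin gene fn1b passed at -1.47 ± 0.27 and -1.41 ± 0.28 (adjusted p = 0.00316 and 0.00561). The hindbrain transcription factor gene egr2b gave -1.79 ± 0.44 (adjusted p = 0.0285). It was at 82.8, 59.0 and 137 in yng retina, 203, 92.6 and 54.7 in WT retina, 247, 234 and 318 in yng embryo and 60.6, 115 and 61.6 in WT embryo, and 7 of the 12 single-array omissions lost its call, with adjusted p up to 0.089.

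Opposite changes in the tissues were found for 8 probe sets. Of these, 5 fell in retina and rose in embryo. The stathmin gene stmn4 was at 47.2, 63.2 and 65.0 in yng retina, against 164, 105 and 72.6 in WT retina, and at 845, 752 and 790 in yng embryo, against 522, 509 and 452 in WT embryo. It fell by 0.75 in retina and rose by 0.67 in embryo (interaction -1.42 ± 0.26, adjusted p = 0.00279). The flow-responsive transcription factor gene klf2b gave -1.27 ± 0.23 (adjusted p = 0.00258), the PI3-kinase inhibitor gene pik3ip1 -1.19 ± 0.16 (adjusted p = 0.000114), the ATP synthase inhibitor gene atp5if1b -0.94 ± 0.13 (adjusted p = 0.000149) and slmapb -0.82 ± 0.15 (adjusted p = 0.0021). The transcription factor gene bhlha9 did the reverse. It was at 26.3, 39.2 and 29.7 in yng retina, against 14.3, 11.1 and 21.5 in WT retina, and at 180, 145 and 99.1 in yng embryo, against 287, 259 and 225 in WT embryo (interaction 1.42 ± 0.24, adjusted p = 0.00138).

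Where both tissues moved together, the interaction measured an unequal step. The adhesion gene cadm2a fell by 2.07 in retina and 0.58 in embryo, at 59.2, 45.0 and 49.4 in yng retina, against 273, 288 and 237 in WT retina (interaction -1.49 ± 0.21, adjusted p = 0.000245). The hexokinase gene hk1 fell by 1.50 in retina and 0.57 in embryo in 1 probe set (-0.92 ± 0.15, adjusted p = 0.000808), and its second passed at -0.85 while another stood at 0.13. The alcohol dehydrogenase gene adh8b rose by 1.29 in retina and 0.43 in embryo (0.86 ± 0.15, adjusted p = 0.00196). The actin regulator gene baiap2a rose by 0.71 in retina and 1.94 in embryo (-1.23 ± 0.26, adjusted p = 0.00884).

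Other lists held 0 to 4 calls each. Of 61 cell cycle genes 0 passed with limma, with a median of 0.17, and 6 had a negative interaction. An unadjusted p under 0.05 was found for 5, all higher, and the replicate block called 1 higher. At 52 hpf 5 were higher and 0 lower, beside 2.55% and 4.29% of all probe sets, with a median of 0.37. In retina at 36 hpf 2 of the 61 rose and none fell, beside 4.19% and 4.9% of all probe sets. Also 0 passed of 76 ribosomal protein genes (median 0.01), of 42 Hox cluster genes (-0.03) and of 61 genes of liver, gut and yolk (0.01). Of these, 0, 3 and 4 had an unadjusted p under 0.05. Over all 15502 probe sets 2.37% passed, so a count of 0 that passed in lists of this length is close to the background. An unadjusted p under 0.05 was found for 1682 of the 15502, and the 0 of 76 ribosomal protein genes lies below that share. Without moderation of the variance 0 passed in each of these 4 lists too, and the replicate block called 1 lower in liver, gut and yolk. Of 44 genes of the optic stalk and of brain regions outside the retina 1 was higher and 3 lower, with a median of -0.15, and with the replicate block 2 were higher and 4 lower. The higher one was fgf8a, also on the FGF list, and the lower ones include egr2b, also on the immediate early and stress list. Of 39 genes of neurons outside the eye 2 were higher and 1, adcyap1b, was lower, with a median of 0.00, and 2 were lower with the replicate block. Of 13 lens genes 1 was higher, with a list median of 0.42, and 3 had a negative interaction. That median was 0.44, 0.68 and -0.15 within replicates 1, 2 and 3. The higher gene was lctla, at 1.46 ± 0.38 (adjusted p = 0.0438). Each of the 12 single-array omissions lost that call, with adjusted p up to 0.111, while the replicate block called 1 lens gene lower. Of 14 pigment cell genes 1 was higher, the melanin synthesis gene dct, at 0.63 ± 0.16 (adjusted p = 0.0346), a call that 7 of the 12 omissions lost, with adjusted p up to 0.103. Of 50 immediate early and stress genes 1 was higher, klf9, and 2 were lower, egr2b and klf2b, with a median of -0.01. With the replicate block 2 were higher and 4 lower. The share that passed was 9.09% in the list of optic stalk and brain regions and 7.69% for neurons outside the eye. It was 7.69% for lens, 7.14% for pigment cell and 6.0% for immediate early and stress genes, beside 2.37% of all probe sets.

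**Figure D4:**
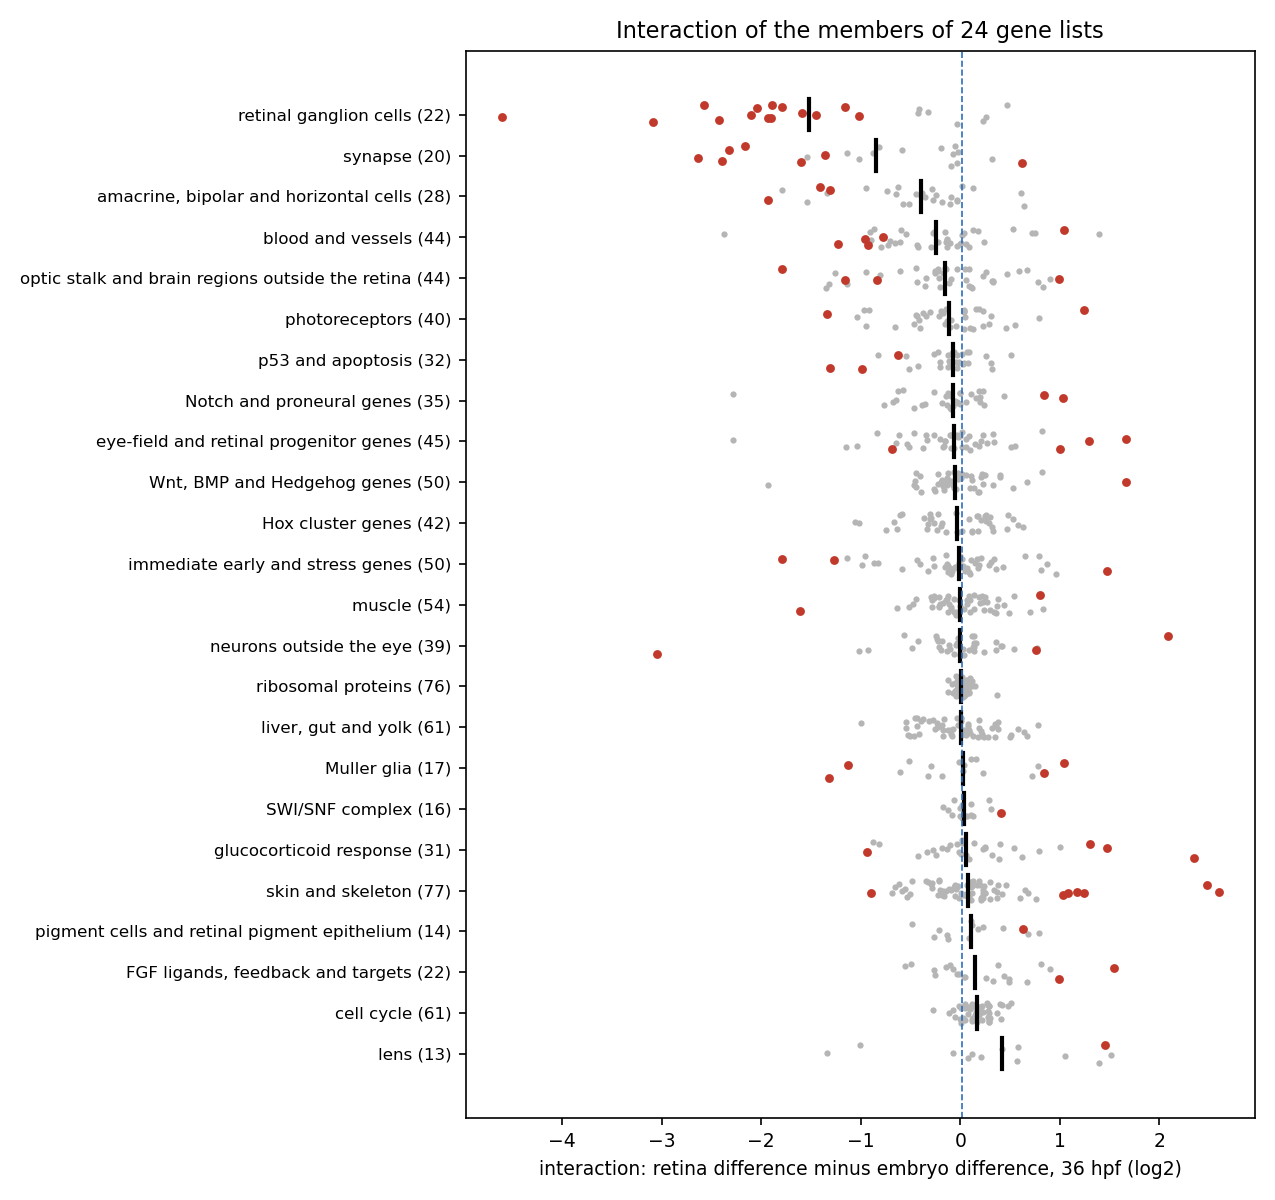
Interaction at 36 hpf (log2) of each measured member of 24 gene lists, one row per list with the number measured in brackets; red points passed the threshold, grey points did not, the black bar is the list's median and the dashed line the median of all probe sets, 0.02. The ganglion cell row is shifted furthest to the left, with a median of -1.52 and 14 of 22 members lower.

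The same interaction was taken at 52 hpf, from other arrays. There 1061 probe sets (6.84%) passed, 396 higher (2.55%) and 665 lower (4.29%). Of the 367 probe sets, 216 passed at 52 hpf in the same direction, 77 higher and 139 lower. They made up 58.9% of the calls at 36 hpf and 20.4% of those at 52 hpf, and 2 passed in the opposite direction. The ganglion cell list again had no member higher and 13 lower, with a median of -1.19. The interaction of inab was -3.09 at 36 hpf and -2.10 ± 0.27 at 52 hpf (adjusted p = 4.24e-05), and that of cd82a was -2.54 at 36 hpf and -2.18 ± 0.16 at 52 hpf (adjusted p = 2.69e-08). For genes that fell in the embryo, fkbp5 had 2.34 at 36 hpf and 1.23 ± 0.29 at 52 hpf (adjusted p = 0.0101), and capn2l had 2.95 at 36 hpf and 3.22 ± 0.23 at 52 hpf (adjusted p = 2.08e-08). The difference between the ages was tested directly. It passed for 135 probe sets (0.871%), 292 with the replicate block, and 21 of the 367 were among them. In 17 of the 21 the difference had the sign of the interaction at 36 hpf, the age at which they were selected. These include slc18a3a, with an interaction of 0.76 at 36 hpf and a larger one of -2.65 at 52 hpf.

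For irx4a the interaction was -4.61 at 36 hpf and -1.50 ± 0.39 at 52 hpf (adjusted p = 0.0187), a difference of -3.10 ± 0.55 (adjusted p = 0.00488). For isl1a it was -1.93 at 36 hpf and -0.51 ± 0.22 at 52 hpf (adjusted p = 0.234), a difference of -1.42 ± 0.31 (adjusted p = 0.027). For fzd8b it was 1.67 at 36 hpf and -0.25 ± 0.29 at 52 hpf (adjusted p = 0.806), a difference of 1.92 ± 0.41 (adjusted p = 0.0211).

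**Figure D5:**
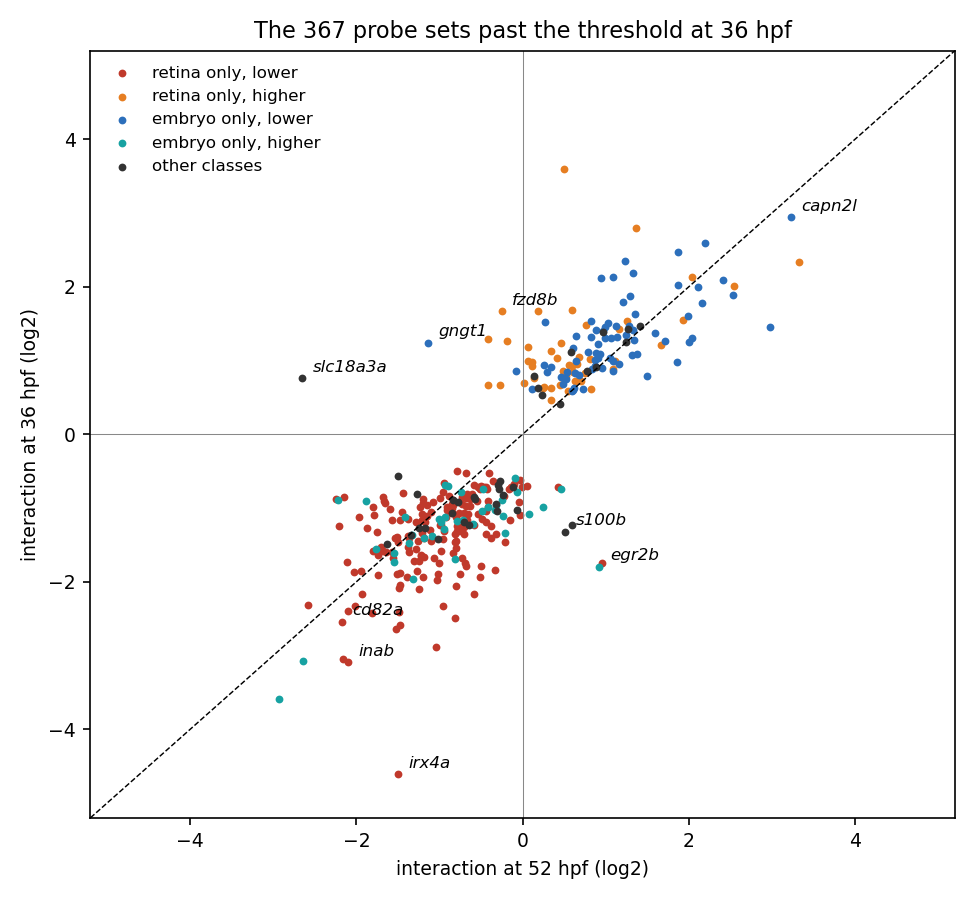
Interaction at 52 hpf on the horizontal axis and at 36 hpf on the vertical axis (log2) for the 367 probe sets that passed at 36 hpf, coloured by class; the dashed line marks equal values. In 350 of the 367 the sign is the same at both ages, and the share over all probe sets was not counted. The gene irx4a lies at -4.61 at 36 hpf and -1.50 at 52 hpf. Both slc18a3a and gngt1 are positive at 36 hpf and negative at 52 hpf.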

How the data were processed

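Per the labels' protocols, 33 ng of pooled RNA went through a two-cycle amplification for each array. In the deposited table every probe set has 1 linear intensity per array, between 0 and 20110. The summarising and scaling steps behind these values are not given in the sources used. The text records of each array gave hybridization days, stations, modules and wash errors, a kind of other information deposited without expression values.

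After removing 115 controls, 15502 probe sets were quantile normalized over 24 arrays and converted to log2(value + 16). One mean for each of 8 groups was estimated in limma 3.58.1 under R 4.3.3 (16 residual and 4.25 prior degrees of freedom), with two-sided p-values under the Benjamini-Hochberg adjustment for all 15502. Fitting all 24 arrays lets the arrays of 52 hpf contribute to the spread. By the platform annotation 10795 probe sets had 1 symbol, 135 had several and 4572 had none; 1 symbol was updated by gene ID through the RefSeq annotation of GRCz12tu. Tables and plots used Python 3.11.15, pandas 2.3.3 and matplotlib 3.10.9. The fit was tested on simulated data.

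The 24 gene lists, the markers and the comparison itself were chosen with earlier results of these data known, so no list was tested; each is given by its counts and its median (1 probe set per gene, the brightest). Genes were named by this rule: smarca4a; up to 14 each way with the largest interaction among called probe sets with 1 symbol, no clone name and the same sign in all 3 replicate numbers; up to 5 per class; and up to 4 called members per list. Members that did not pass are named with values.

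Replicate numbers pair arrays hybridized on the same day, per the array records, except that WT embryo replicate 3 of 52 hpf had a day of its own and kept the number 3 in the block. After removal of group means, arrays of the same number correlated with a median of 0.307 (lowest 0.074, 18 pairs) and arrays of other numbers with -0.146, and all 12 arrays matched their own number best. Deviations from a group mean cancel out within the group. The negative value thus follows largely from the positive one and is no separate sign of pairing. The block is given where it moves a count of calls by over 1.5 times.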

Additional observations from a re-analysis of the deposited data

Results flagged for a closer look

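For 9 named genes the interaction at 36 hpf minus that at 52 hpf passed the threshold in a direct test of the 2 ages with limma. It was -3.10 for irx4a, -1.84 for tmsb and -1.42 for isl1a, which fell in yng retina at 36 hpf, and 1.92 for fzd8b, which rose there. It was -1.83 for s100b and -1.82 for baiap2a, which at 36 hpf rose more in embryo than in retina. It was -2.72 for egr2b (adjusted p = 0.0341) and 2.38 for gngt1 (adjusted p = 0.000829), whose interactions were -1.79 and 1.24 at 36 hpf and 0.93 and -1.14 at 52 hpf. For slc18a3a, the vesicular acetylcholine transporter gene, it was 3.42 (adjusted p = 5.27e-08), the largest of the 9, from an interaction of 0.76 ± 0.17 at 36 hpf and -2.65 ± 0.17 at 52 hpf. The value at 36 hpf was 1.45 with an offset of 1 and 0.49 with 64, and it did not pass without yng retina replicate 3 (adjusted p = 0.0502). At 36 hpf slc18a3a was at 14.5 and 11.3 in yng retina replicates 1 and 3. It was listed at 0 in yng retina replicate 2 and in all 3 WT retinas. In embryos slc18a3a was at 480, 528 and 495 in yng, against 650, 644 and 701 in WT. The causes of these differences between ages were not tested.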

How the results depend on the processing

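The count of 367 probe sets (131 higher, 236 lower) was 360 on the intensities as deposited, 362 with quantile normalization within each tissue, 347 and 402 with offsets of 1 and 64, 388 with only the 13859 probe sets that reached a group mean of 64, and 352 without moderation of the variance. With only the 12 arrays of 36 hpf it was 184 (72 higher, 112 lower), and 911 passed in retina and 506 in embryo, where there are fewer arrays to estimate the spread. With the replicate block it was 816 (335 higher, 481 lower), with 2865 in retina, 2247 in embryo and 292 for the difference between ages. That difference was called for 72 probe sets with an offset of 1, against 135. Leaving out each of the 12 arrays in turn gave 290 to 506 calls in the interaction, 107 to 159 higher and 183 to 363 lower, 1083 to 1448 in retina, 594 to 982 in embryo and 112 to 191 for the difference between ages. The lowest and highest totals came without WT embryo replicate 1 and without WT retina replicate 3, and in embryo 594 were called without WT embryo replicate 1 and also without replicate 2. The cause was not tested. Of the 85 named probe sets, 84 passed, and none of these changed sign in any setting; the other, the second of smarca4a, was at -0.04 with an offset of 64, against 0.18. Of the 84, 61 passed in all 12 omissions; 28 did not with only the arrays of 36 hpf, 13 with an offset of 1, 11 without moderation, 7 as deposited, 5 with an offset of 64, 5 within tissue and none with the replicate block. An offset of 64 made 19 of the 84 interactions smaller by over 1.5 times, and an offset of 1 moved 7 as far, 1 of them to a smaller size. Leaving out single arrays moved 1 as far, cplx2a without WT retina replicate 1. Signal limits what the retina can show for embryo-only genes. A mean under 64 in both retina groups was found for 55 of 73 embryo-only falls and 22 of 38 embryo-only rises. Over all probe sets the share was 21.3%, and 22.0% had such a mean in both embryo groups. With 3 arrays a group, a median SE of 0.224 limits the smallest interaction that can pass.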

Other observations

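Some of the largest interactions belonged to probe sets without a gene symbol in the annotation used here. One of them had the highest of all, 3.60 ± 0.32 (adjusted p = 5.74e-07). It was at 377, 561 and 432 in yng retina, against 21.4, 18.5 and 32.7 in WT retina, and at 206, 238 and 176 in yng embryo, against 182, 292 and 179 in WT embryo, so that WT retina was the low group. At 52 hpf its interaction was 0.49 (adjusted p = 0.516), and the difference between the ages was 3.10 (adjusted p = 0.000707). Another had -3.59 ± 0.22 (adjusted p = 2.39e-09). It was under 10 in every retina array and at 4222, 3990 and 2970 in yng embryo, against 230, 359 and 239 in WT embryo. Its interaction at 52 hpf was -2.93.

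Of the 252 called probe sets with a chromosome, 17 (6.75%) lay on the chromosome of smarca4a, against 555 of 10711 tested (5.18%). Among retina-only falls it was 4 of 113 (3.54%), and among embryo-only falls 4 of 52 (7.69%). Retina-only rises had 2 of 28 (7.14%) and embryo-only rises 3 of 32 (9.38%). The 17 include the brighter probe set of smarca4a itself, whose call stood at the edge of the threshold. They also include probe sets of rcn3, septin9a, selenow2b, baiap2a and coro1a. Whether the place of these genes on that chromosome played a part was not tested.

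In 11 probe sets the interaction passed while neither tissue did alone. The melanin synthesis gene dct, for example, was at 478, 457 and 514 in yng retina, against 425, 354 and 405 in WT retina, and at 969, 1107 and 861 in yng embryo, against 1341, 1251 and 1150 in WT embryo. Its differences were 0.28 in retina and -0.35 in embryo, neither of which passed.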
